A study of Mus musculus with 8 samples.

Results

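Neurofilaments and the proteins of axonal microtubules were followed in mouse cortex around a surgical cavity. The group comprised 10 genes, chosen by name from the 17644 gene symbols of the deposited table, and all 10 had a row there and passed the filter on low values. Neurofilaments are intermediate filaments of neurons, built from a light (Nefl), a medium (Nefm) and a heavy (Nefh) chain and, in the central nervous system, alpha-internexin (Ina), and they set the calibre of the axon. Microtubules are the tracks of axonal transport, and are stabilised by tau (Mapt) in axons and by Map2 in dendrites. Map1b, the neuronal tubulin Tubb3, the tubulin-binding phosphoprotein Stmn2 and the growth-cone protein Gap43 are abundant in growing neurites. In cortex these RNAs are made mainly in the cell bodies of neurons.

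The animals were 11-week-old male C57BL/6NCrSlc mice. A cavity was aspirated in the motor cortex of every animal, and the brain was taken 1 week later (1-week, 4 samples) or directly after the lesion (No-delay, 4 samples). Tissue within 1.0 mm of the cavity was collected, so both groups had the lesion and neither is uninjured cortex. The series title concerns progranulin and the engraftment of human neurons. RNA was measured by cap analysis of gene expression (CAGE), in which 1 sequencing tag is read from the capped 5′ end of an RNA. A level is given in CPM, the tags of a gene out of all tags assigned to genes, on a scale common to all libraries, and levels of different genes were therefore compared without division by length.

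The libraries held 8278855 to 13998941 reads. They are called A, B, C and D within each group, in the alphabetical order of the 6-base tag in their column names, and values per library are given in that order. The 10 genes had 177 to 12998 reads per library, and only Nefh, with 177 to 392 reads, had fewer than 949. Neuron markers were present in every library: the 8 general neuron markers summed to 7335 to 7695 CPM at 1 week and 8354 to 9205 CPM without delay. Of the glial markers, 8 of 8 microglia markers and 7 of 8 astrocyte markers were called higher at 1 week, beside 23.4% of all genes tested. The 8 microglia markers summed to 1665 to 2437 CPM at 1 week and 478 to 486 CPM without delay, and the 8 astrocyte markers to 4433 to 5061 CPM against 2200.4 to 2516 CPM.

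CAGE tags mark the start of transcription, so the promoter windows of the genes are shown first. With CPM as deposited, Ina and Map1b were called lower at 1 week and Map2 and Tubb3 were not called. These calls do not split the 4 genes firmly: the Map1b call held in 10 of 19 alternatives, and Map2 was called lower in 4 of 19. The RefSeq promoter table (GRCm38.p6) held these 4 of the 10 genes. Each window runs from 250 bases before to 50 bases after the annotated start and is written 5′ to 3′ on the strand of the gene. Capitals mark the letters TATAAA (the TATA box), the CCAAT box and the letters GGGCGG (the GC box), and a match on the other strand stands as its reverse complement. The Ina window lies at chr19:47014431-47014730 on the plus strand, that of Map1b at chr13:99516553-99516852 on the minus strand, that of Map2 at chr1:66175079-66175378 on the plus strand and that of Tubb3 at chr8:123411303-123411602 on the plus strand.
Ina: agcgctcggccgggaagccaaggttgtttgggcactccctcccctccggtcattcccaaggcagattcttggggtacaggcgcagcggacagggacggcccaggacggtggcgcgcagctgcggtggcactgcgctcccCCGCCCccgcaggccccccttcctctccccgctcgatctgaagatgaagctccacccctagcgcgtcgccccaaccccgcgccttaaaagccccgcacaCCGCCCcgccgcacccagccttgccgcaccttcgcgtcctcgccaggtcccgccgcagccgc
Map1b: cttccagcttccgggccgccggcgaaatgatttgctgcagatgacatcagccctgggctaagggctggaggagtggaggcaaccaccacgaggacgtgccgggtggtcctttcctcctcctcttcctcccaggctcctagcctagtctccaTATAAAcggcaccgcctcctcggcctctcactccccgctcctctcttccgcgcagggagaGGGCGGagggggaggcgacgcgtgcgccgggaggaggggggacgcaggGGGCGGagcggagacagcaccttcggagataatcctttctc
Map2: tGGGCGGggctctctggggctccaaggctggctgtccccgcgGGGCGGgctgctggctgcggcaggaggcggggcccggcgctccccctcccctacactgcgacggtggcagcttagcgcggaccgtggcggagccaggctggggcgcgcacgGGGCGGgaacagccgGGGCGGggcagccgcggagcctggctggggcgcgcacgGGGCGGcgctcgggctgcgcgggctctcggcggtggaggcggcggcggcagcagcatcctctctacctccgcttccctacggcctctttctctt
Tubb3: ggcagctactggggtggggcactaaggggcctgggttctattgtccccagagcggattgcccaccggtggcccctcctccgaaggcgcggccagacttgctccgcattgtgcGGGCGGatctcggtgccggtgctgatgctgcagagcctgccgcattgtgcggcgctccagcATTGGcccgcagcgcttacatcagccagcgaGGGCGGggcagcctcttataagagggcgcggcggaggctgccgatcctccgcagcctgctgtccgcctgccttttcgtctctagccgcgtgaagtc

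All 4 windows were rich in G and C, at 71.7% for Ina, 65.7% for Map1b, 77.7% for Map2 and 67.3% for Tubb3, against a median of 52.7% over 32851 windows of the same length. They held 32, 23, 37 and 26 CpG dinucleotides in that order, against a median of 7. The GC box GGGCGG was found in all 4 windows (2 in Ina, 2 in Map1b, 5 in Map2 and 2 in Tubb3) and in 35.7% of all windows. The exact letters TATAAA occurred only in the Map1b window among these 4, at -99 from the annotated start, and in 13.6% of all windows. Other forms of the TATA box were not searched, so a window without these letters may still hold one. CCAAT occurred only in that of Tubb3 among these 4, on the reverse strand, and in 37.4% of all windows. The AP-1 letters TGANTCA and the CRE letters TGACGTCA were in none of the 4, and in 7.81% and 1.79% of all windows. No marked match overlapped another, and a match or its absence describes the window only.

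Of the 4 neurofilament genes, Ina was called lower at 1 week and the chains Nefl, Nefm and Nefh were not called. Together they summed to 654 to 747 CPM at 1 week and 645 to 807 CPM without delay, ranges that overlap. A gene was called when its adjusted p (limma on log2(CPM + 1), Benjamini-Hochberg over the 14718 genes tested) was under 0.05, and fold changes are 1-week over No-delay on that scale.

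Ina had 115, 117, 117 and 129.6 CPM in the 1-week libraries, against 166, 137, 128.5 and 161 CPM in the No-delay libraries. The groups met at 1 point only, where the 1-week library D lay just above the No-delay library C. Ina averaged 119 ± 6.82 CPM at 1 week and 148 ± 18.3 CPM without delay (SD, n = 4 each), a fall of 19.4% in the mean, with a log2 fold change of -0.30 (standard error 0.09, 95% interval -0.49 to -0.12, limma adjusted p = 0.0151). The call held in 18 of 19 alternatives, and in each of the 8 fits that left out 1 library. In bulk tissue, fewer cells of a type and less RNA per cell cannot be told apart, for this gene and all that follow.

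Nefl, the chain on which the others assemble, had 273, 301, 265 and 289 CPM at 1 week, against 325, 293, 246 and 314 CPM without delay. The No-delay libraries spanned the 1-week ones on both sides. The means were 282 ± 16.0 CPM at 1 week and 295 ± 35.1 CPM without delay (SD, n = 4 each), and the log2 fold change was -0.06 (standard error 0.09, 95% interval -0.25 to 0.13, limma adjusted p = 0.626).

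Nefm, whose tail forms side arms of the filament, had 245, 303, 249 and 273 CPM at 1 week, against 284, 250.4, 246 and 299.55 CPM without delay. Both groups covered nearly the same range, and the lowest and the highest value were both in 1-week libraries. Its means were 268 ± 26.7 and 270.1 ± 26.1 CPM (SD, n = 4 each) in the 1-week and No-delay groups, with a log2 fold change of -0.01 (standard error 0.09, 95% interval -0.20 to 0.17, limma adjusted p = 0.916). Its sign turned without the 1-week library A (0.03) or C (0.02) and without the No-delay library A (0.01) or D (0.04), so no direction can be given for Nefm.

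Nefh, the heavy chain with the longest tail, stood far below the other chains. It had 21.4, 27.3, 28.0 and 29.8 CPM at 1 week, against 30.5, 33.7, 24.1 and 31.9 CPM without delay. The lowest value was in the 1-week library A, and the groups overlapped through the No-delay library C. The log2 fold change was -0.17 (standard error 0.12, 95% interval -0.43 to 0.10, limma adjusted p = 0.308), from means of 26.6 ± 3.65 CPM at 1 week and 30.1 ± 4.21 CPM without delay (SD, n = 4 each). An overlap bears on these rows: in the RefSeq annotation Nefh overlaps Ap1b1 (95.7 CPM at 1 week, 95.9 CPM without delay) and Ina overlaps Nt5c2 (56.2 and 66.8 CPM in the same order), and whether tags were assigned by strand is not given in the sources used here.

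**Figure D1:**
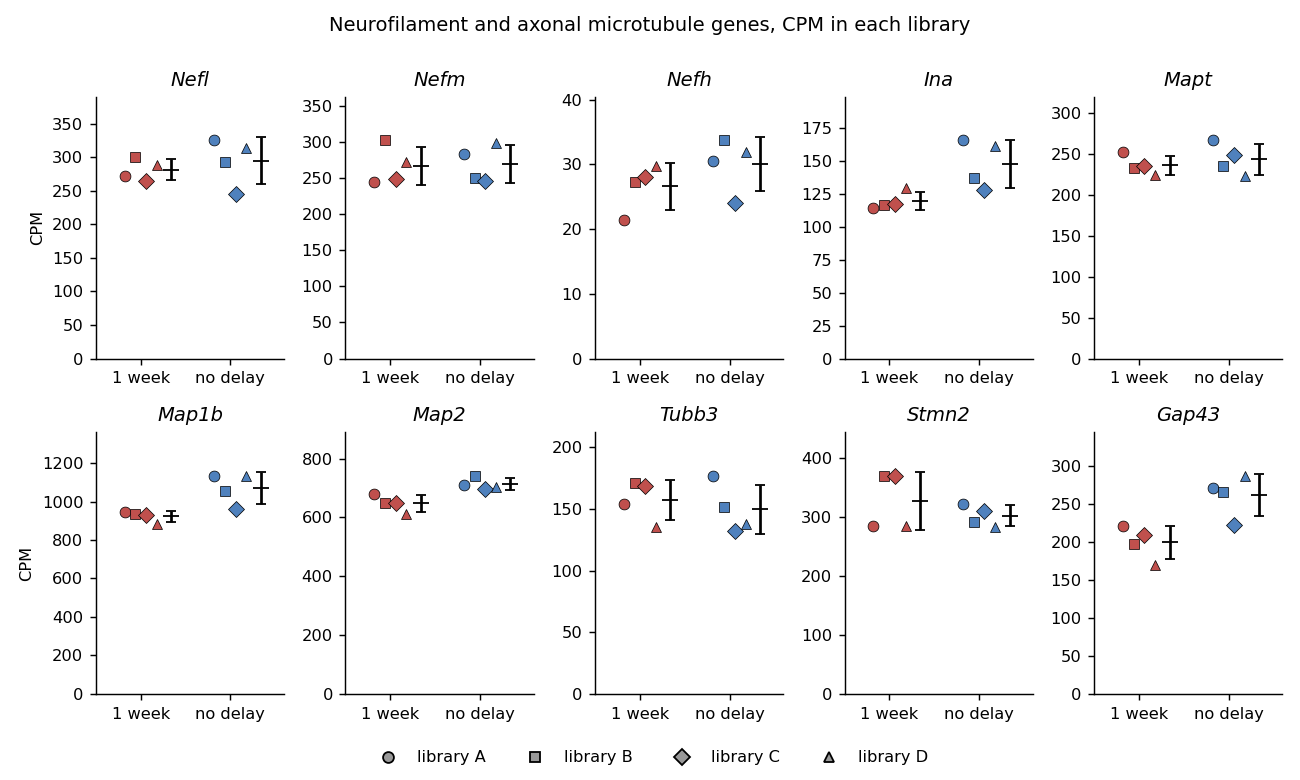
CPM of each of the 10 genes (vertical axes from 0, 1 panel per gene) in the 4 libraries taken 1 week after the lesion (red, left) and the 4 taken without delay (blue, right); the marker shape gives the library (A to D), and the bar with whiskers is the mean ± SD. Gap43, Map1b and Map2 show no overlap between the groups, Ina overlaps at 1 point, and the other 6 genes overlap.

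Among the microtubule-associated proteins, Map1b was called lower and Map2 and Mapt were not. Their summed level was 1718 to 1878 CPM at 1 week and 1904 to 2112 CPM without delay, with every 1-week library below every No-delay library.

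Map1b, which marks growing axons and remains in the adult cortex, had 947, 933, 928.5 and 882 CPM at 1 week, against 1134, 1053, 960.0 and 1134 CPM without delay. All 1-week libraries lay below all No-delay libraries, with the No-delay library C the closest to them. The means were 922.5 ± 28.4 CPM at 1 week and 1070.2 ± 82.9 CPM without delay (SD, n = 4 each), and the log2 fold change was -0.21 (standard error 0.07, 95% interval -0.37 to -0.05, limma adjusted p = 0.0430). The call held in 10 of 19 alternatives. It was lost without any one of the 4 1-week libraries or of the No-delay libraries A, B and D, with adjusted p from 0.0607 to 0.1002 in the same limma fit. It was also lost with no filter (limma adjusted p = 0.0674) and on the neuron marker scale described further on (limma adjusted p = 0.934). With the 6-base tag as a block, which is not among the 19, Map1b was not called either (limma adjusted p = 0.0529).

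Map2, the dendritic member of the tau family, had 678, 649, 650.5 and 611 CPM at 1 week, against 711, 742, 695 and 703 CPM without delay. These groups did not overlap either. The means were 647 ± 27.6 CPM at 1 week and 713 ± 20.4 CPM without delay (SD, n = 4 each), with a log2 fold change of -0.14 (standard error 0.06, limma adjusted p = 0.103). Map2 was called lower when libraries were scaled by TMM (-0.20, limma adjusted p = 0.0301) or by median of ratios (-0.21, limma adjusted p = 0.0260), by edgeR (adjusted p = 0.0318) and by DESeq2 (adjusted p = 0.00214).

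Mapt, which encodes tau, had 252, 233, 236 and 225 CPM at 1 week, against 267, 235, 249 and 223 CPM without delay. The groups covered nearly the same range. Its log2 fold change was -0.04 (standard error 0.07, 95% interval -0.19 to 0.11, limma adjusted p = 0.675), and its sign turned without the No-delay library A (0.0040), so Mapt too has no direction here. Its means were 237 ± 11.5 CPM at 1 week and 244 ± 18.9 CPM without delay (SD, n = 4 each).

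Tubb3, the beta-tubulin isotype of neurons, was not called. It had 154, 171, 169 and 135 CPM at 1 week, against 177, 151, 132 and 138 CPM without delay. The highest value and the lowest were both in No-delay libraries. The means were 157 ± 16.5 CPM at 1 week and 149.6 CPM without delay (n = 4 each, with a coefficient of variation of 13.4% without delay), and the log2 fold change was 0.07 (standard error 0.10, 95% interval -0.14 to 0.29, limma adjusted p = 0.589).

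The growth-cone genes gave different calls, with Gap43 called lower and Stmn2 not called. Gap43, a membrane-bound protein of growth cones and presynaptic terminals, had 221, 197, 209 and 169.7 CPM at 1 week, against 271, 265, 222 and 287 CPM without delay. The groups did not overlap, although the 1-week library A and the No-delay library C lay side by side. Gap43 averaged 199 ± 22.1 CPM at 1 week and 261 ± 27.8 CPM without delay (SD, n = 4 each), a fall of 23.7% in the mean. Its log2 fold change of -0.39 was the lowest of the 10 genes (standard error 0.10, 95% interval -0.60 to -0.18, limma adjusted p = 0.00689), and the call held in 18 of 19 alternatives, the 8 fits without 1 library included.

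Stmn2, a regulator of microtubule dynamics also known as SCG10, had 285, 369.85, 369.7 and 285 CPM at 1 week, against 323, 292, 309.8 and 282 CPM without delay. The 1-week libraries fell into a lower pair (A and D) within the No-delay range and a higher pair (B and C) above it. The means were 327 ± 49.0 CPM at 1 week and 302 ± 17.9 CPM without delay (SD, n = 4 each), and the log2 fold change was 0.11 (standard error 0.10, 95% interval -0.10 to 0.32, limma adjusted p = 0.415).

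In all, 3 of the 10 genes were called lower at 1 week and 7 were not called. Of all genes tested, 13.4% were called lower and 23.4% higher. None of the 10 was called higher by limma on CPM as deposited, by edgeR or by DESeq2, and in the limma fit 0 were higher at an unadjusted p under 0.05, while 4 were lower at that p. On the neuron marker scale described further on, 2 were called higher, beside 7174 of the 14718 genes tested. In 3 of the 10 genes every 1-week library lay below every No-delay library, as it did for 12.0% of all genes tested. The median log2 fold change was -0.10 over the 10 genes and 0.06 over all genes tested. The spread between libraries exceeded what counting reads gives: the coefficient of variation within a group ran from 2.87% to 15.0%, and that of counting alone from 0.956% for Map1b to 5.63% for Nefh.

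The No-delay library C bears on several of these values. It was the lowest of its group for 8 of the 10 genes, with a mean deviation of -0.14 on the log2 scale, and the No-delay library A lay above its group mean for 9 of them. Without the No-delay library C 3 genes were called lower, as with all libraries, and without any other 1 library 2 were (Gap43 and Ina).

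The order of the levels was nearly the same in both groups. Map1b and then Map2 stood above the rest, with no overlap to the next gene in either group. Stmn2, Nefl and Nefm followed, and neighbours in that order overlapped in both groups. At 1 week Mapt came next, overlapping Nefm, and Gap43 lay below Mapt without overlap. Without delay Gap43 and Mapt overlapped each other, with Gap43 the higher in the mean. Tubb3 and Ina overlapped without delay but not at 1 week, and Nefh was the lowest in both groups, clear of Ina.

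Ratios between genes in the same library do not depend on any 1 factor by which the library is multiplied, apart from the pseudocount of 1 in their log2 values. Quantile scaling is no such factor. Of 6 pairs compared, none reached an adjusted p under 0.05 over the 6. The tests were exact 2-sided permutation tests over the 70 arrangements of the libraries, for which the smallest p is 0.0286. After adjustment such a test could pass only if several pairs reached that smallest p together. It therefore does not show that the ratios were the same in both groups. The ratio of Ina to Nefl was 0.420, 0.388, 0.442 and 0.449 at 1 week, against 0.510, 0.468, 0.522 and 0.513 without delay. Every 1-week ratio lay below every No-delay ratio, with an exact permutation p = 0.0286 and an adjusted p = 0.171, and the mean log2 ratio was lower by 0.24 at 1 week (difference -0.24). Nefl and Nefm kept close to each other in every library. Their ratio (Nefm over Nefl) was 0.948 ± 0.0453 at 1 week and 0.920 ± 0.0682 without delay (SD, n = 4 each, exact permutation p = 0.514). Nefh over Nefl was 0.0946 ± 0.0126 at 1 week and 0.102 ± 0.00925 without delay (SD, n = 4 each, exact permutation p = 0.429).

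The pairs of the other roles overlapped between the groups. Gap43 over Stmn2 was 0.778, 0.533, 0.566 and 0.595 at 1 week, against 0.841, 0.909, 0.717 and 1.02 without delay. Only the 1-week library A reached into the No-delay range. The mean log2 ratio differed by -0.50, with an exact permutation p = 0.0571 and an adjusted p = 0.171. Map1b over Mapt was 3.90 ± 0.105 at 1 week and 4.41 ± 0.516 without delay, and Map2 over Mapt was 2.73 ± 0.0425 and 2.94 ± 0.251 in the same order (SD, n = 4 each, exact permutation p = 0.114 and 0.257). In both pairs the No-delay ratios were the more scattered, and neither difference held after adjustment (adjusted p = 0.229 and 0.386).

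**Figure D2:**
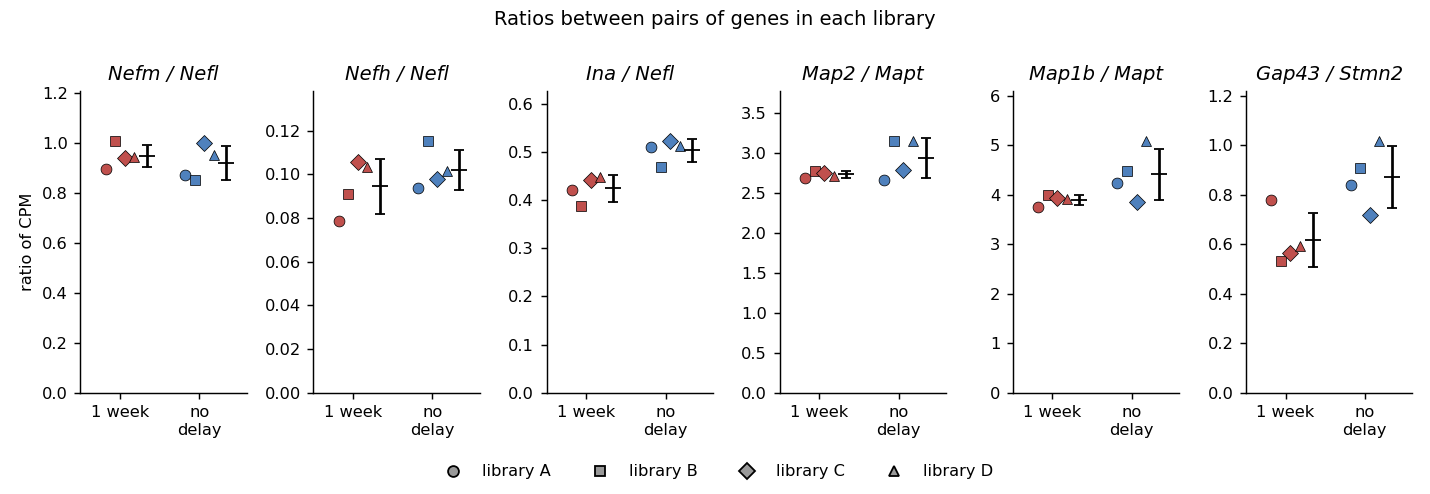
Ratio of the CPM values of 6 pairs of genes (vertical axes from 0, 1 panel per pair) in the 4 libraries of the 1-week group (red, left) and the 4 of the No-delay group (blue, right); the marker shape gives the library (A to D), and the bar with whiskers is the mean ± SD. The ratio of Ina to Nefl is the 1 pair without overlap, at 0.388 to 0.449 at 1 week and 0.468 to 0.522 without delay.

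General neuron markers were lower at 1 week as well, which gives another scale for the 10 genes. The 8 such markers include the synaptic vesicle protein Vamp2 and the neuronal splicing factor Rbfox3. Of them, 5 were called lower (Rbfox3, Vamp2, Syn1 and Syt1 among them), beside 13.4% of all genes tested, with a median log2 fold change of -0.23. The count of 5 fell to 3 without any one of the 1-week libraries B and D or the No-delay library A. Rbfox3 had 262 ± 29.1 CPM at 1 week and 325 ± 8.02 CPM without delay, and Vamp2 had 757 ± 53.8 and 932 ± 23.7 CPM in the same order (SD, n = 4 each). The geometric mean of the 8 was 651 to 682 CPM at 1 week and 741 to 812 CPM without delay.

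Divided by that geometric mean, the 10 genes shifted upward. Stmn2 stood at 0.490 ± 0.0762 of it at 1 week and 0.392 ± 0.0203 without delay, and Tubb3 at 0.235 ± 0.0254 and 0.194 ± 0.0177 in the same order (SD, n = 4 each). On this scale both were called higher, Stmn2 with a log2 fold change of 0.31 (limma adjusted p = 0.0183) and Tubb3 with 0.28 (limma adjusted p = 0.0194). These 2 calls among the 10 genes stand beside 7174 of the 14718 genes tested called higher on this scale and 730 called lower. Gap43 (-0.19, limma adjusted p = 0.0942), Ina (-0.10, adjusted p = 0.319) and Map1b (-0.01, adjusted p = 0.934) were no longer called, and none of the 10 was called lower. This scaling moved the median of all genes to 0.25, and relative to that shift Stmn2 lay at 0.06, Tubb3 at 0.03, Ina at -0.35 and Gap43 at -0.44. The glial markers above moved with the groups as well, and their part in these results was not tested.

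**Figure D3:**
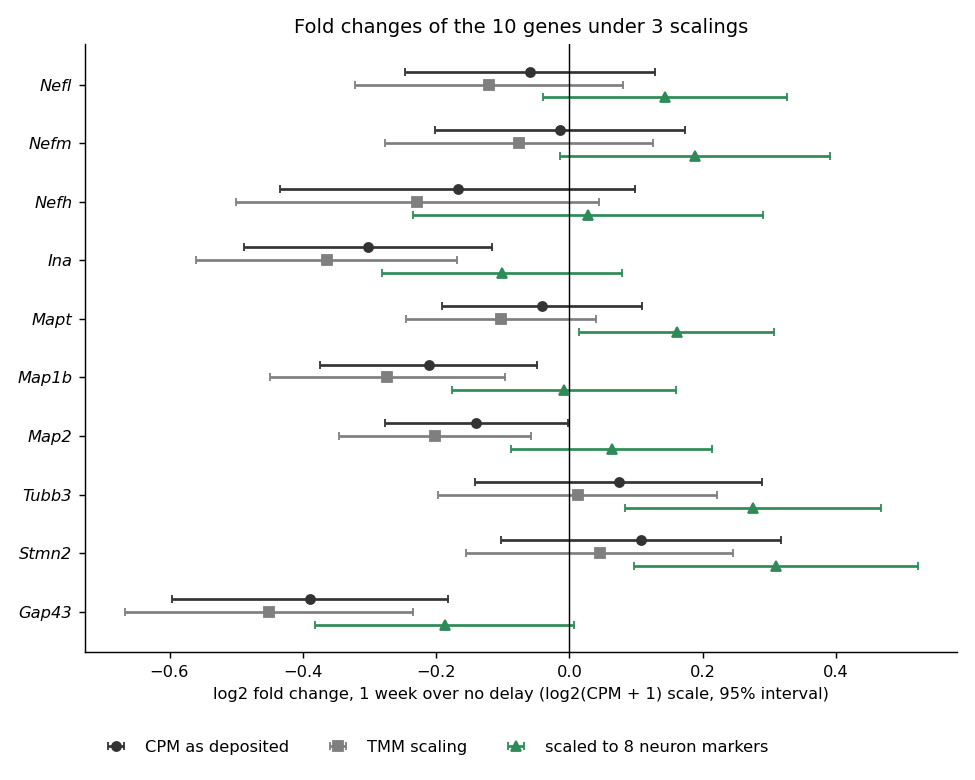
Log2 fold change of each of the 10 genes (horizontal axis, 1-week over No-delay, with 95% intervals) with CPM as deposited (circles), with TMM scaling (squares) and with each library divided by the geometric mean of 8 neuron markers (triangles). The triangles lie to the right of the other symbols for every gene, and Gap43 is the lowest under all 3, at -0.39, -0.45 and -0.19.

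Genes whose profile over the 8 libraries was nearest to the mean profile of Nefl, Nefm, Nefh and Ina were Tmem63b, Dnajb1, Map4k2, Wdr74 and Sstr4. Likeness was measured as the root-mean-square difference of the centred log2(CPM + 1) values, over 7882 genes with a mean of 20 CPM or more. It was 0.05 for Tmem63b and Dnajb1 and 0.06 for the other 3, against a median of 0.20. Tmem63b had 85.3 CPM at 1 week and 89.8 CPM without delay, and Sstr4, a somatostatin receptor, 47.8 and 56.1 CPM in the same order.

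Other stathmins and microtubule-associated proteins were mostly not called. With CPM as deposited, the counts in this and the following lists stand beside 23.4% of all genes tested called higher and 13.4% called lower. Counts under other settings stand beside those of all genes under the same setting. On the neuron marker scale, 7174 of the 14718 genes tested were called higher and 730 lower. Genes called higher and lower were 2904 and 2636 with TMM and 2858 and 2759 with median-of-ratios scaling. They were 2464 and 3211 with quantile scaling, 2923 and 2569 by edgeR, 2799 and 2762 by DESeq2 and 3799 and 2249 with library weights. Of 12, 1 was called higher (Stmn3), 3 lower (Map7d2, Map7 and Map9) and 8 were not called, with a median of -0.12. Stmn3, a stathmin of neurons, had 359 ± 54.2 CPM at 1 week and 264 ± 18.3 CPM without delay (SD, n = 4 each, log2 fold change 0.43, standard error 0.10, limma adjusted p = 0.00556), although the groups overlapped. Map7d2, a cofactor of kinesin-1 transport, had 68.7 ± 8.79 CPM at 1 week and 102 ± 13.2 CPM without delay (log2 fold change -0.57, standard error 0.10, limma adjusted p = 0.00104). Its relative Map7 had 18.3 ± 2.30 and 22.6 ± 1.29 CPM in the same order (log2 fold change -0.29, limma adjusted p = 0.0382), a call lost without the 1-week libraries A or B or the No-delay libraries A, C or D. The count called lower was 1 without the 1-week library B or the No-delay library C, 5 when scaled by TMM, 6 by median of ratios and by DESeq2, and 1 on the neuron marker scale, where 4 were higher.

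Tubulin subunits other than Tubb3 included several that rose. Of 12, 6 were called higher and 6 were not called, with a median of 0.26. Under the other scalings 4 to 8 were higher, and each of these counts includes Tuba1c and Tubb6. Tuba1c and Tubb6 passed the filter through the 1-week libraries alone, so their difference is given as a description. Without them 4 of 10 were called higher with CPM as deposited and 6 were not called, with a median of 0.18. The counts under the other scalings are not given without them. Tubb2b, a beta-tubulin of young neurons and of glia, had 170.4 ± 11.0 CPM at 1 week and 107 ± 2.75 CPM without delay, with no overlap (log2 fold change 0.66, standard error 0.06, limma adjusted p = 5.42e-06). Tuba1c had 5.08 ± 1.49 CPM at 1 week and 0.365 ± 0.205 CPM without delay, and Tubb6 had 5.45 ± 1.98 and 0.618 ± 0.156 CPM in the same order (SD, n = 4 each). The 1-week mean was 13.9 times the No-delay mean for Tuba1c and 8.82 times for Tubb6. Tubulin genes are close copies of each other, and how tags that match several copies were assigned is not given in the sources used here.

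Enzymes that modify or cut tubulin gave 1 gene called higher (Sirt2), 4 lower (Ttll11, Agbl4, Ttl and Ttll7) and 11 not called of 16, with a median of -0.06. Sirt2, a tubulin deacetylase abundant in oligodendrocytes, had 127 ± 18.0 CPM at 1 week and 69.4 ± 10.8 CPM without delay (log2 fold change 0.87, limma adjusted p = 9.9e-05). The 8 oligodendrocyte markers summed to 2357 to 3997 CPM at 1 week and 1490 to 3390 CPM without delay, and their part in this value was not tested. Ttll11, which adds glutamate chains to tubulin, had 20.6 ± 4.41 and 30.4 ± 2.71 CPM at 1 week and without delay (log2 fold change -0.56, limma adjusted p = 0.00561), and Agbl4, which removes them, had 43.6 ± 4.64 and 54.6 ± 1.15 CPM in that order (log2 fold change -0.32, limma adjusted p = 0.00692). The count called lower was 2 without the 1-week library B or the No-delay library C and 1 on the neuron marker scale, and the count called higher was 2 without the 1-week library C and 3 on that scale.

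At the ends of microtubules, 1 of 12 genes was called higher (Mapre1), 3 lower (Camsap1, Camsap2 and Mapre3) and 8 were not called, with a median of -0.07. Camsap2, which binds minus ends, had 65.8 ± 5.90 CPM at 1 week and 103 ± 5.08 CPM without delay (log2 fold change -0.64, standard error 0.07, limma adjusted p = 3.14e-05), and its relative Camsap1 had 37.8 ± 5.18 and 60.8 ± 3.40 CPM in the same order (log2 fold change -0.68, limma adjusted p = 0.000106). Mapre1, the plus-end protein EB1, had 156 ± 8.63 CPM at 1 week and 113 ± 5.41 CPM without delay (log2 fold change 0.46, limma adjusted p = 0.000121). With TMM or median-of-ratios scaling, by edgeR and by DESeq2, 6 were called lower, and on the neuron marker scale 6 were called higher and 2 lower.

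Kinases, phosphatases and other regulators of tau were mostly lower at 1 week, while the RNA of tau itself was not called. Of 16, 12 were called lower, 1 higher (Fyn) and 3 were not called, with a median of -0.32. Cdk5r1, the p35 activator of the kinase Cdk5, had 229 ± 41.4 CPM at 1 week and 375 ± 28.3 CPM without delay, without overlap (log2 fold change -0.72, standard error 0.11, limma adjusted p = 0.000318). Mark2, which phosphorylates tau in its microtubule-binding repeats, had 40.2 ± 5.35 and 63.0 ± 9.20 CPM in the same order (log2 fold change -0.63, limma adjusted p = 0.000974), and Gsk3b, a major tau kinase, had 101 ± 8.58 and 150.3 ± 24.6 CPM (log2 fold change -0.56, limma adjusted p = 0.0016). The difference between these genes and Mapt was not tested. The count called lower was 7 without the 1-week library B and 4 on the neuron marker scale, where 3 were higher, and the Fyn call was lost with TMM or median-of-ratios scaling and without the 1-week libraries B or C or the No-delay libraries B, C or D.

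Other intermediate filaments included several that rose. Of 8 tested, 4 were called higher (Gfap, Vim, Nes and Des) and 1 lower (Synm), with a median of 0.41. The 3 not called were the nuclear lamins Lmna, Lmnb1 and Lmnb2. Gfap, the filament of astrocytes, had 1174 ± 288 CPM at 1 week and 31.4 ± 5.02 CPM without delay, a ratio of means of 37.4 (log2 fold change 5.16, standard error 0.16, limma adjusted p = 3.29e-09). Vim, made by reactive astrocytes, microglia and vascular cells, had 369 ± 93.4 and 23.8 ± 3.53 CPM in the same order (log2 fold change 3.87, limma adjusted p = 2.16e-08), and Nes, of progenitors and reactive glia, 12.3 ± 2.35 and 5.53 ± 0.469 CPM (log2 fold change 1.01, limma adjusted p = 9.13e-05). The Synm call was lost without any 1 of the 1-week libraries A, B and C or the No-delay libraries B and C, and on the neuron marker scale.

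Genes for the turnover of neurofilaments gave 2 of 8 called higher and 6 not called, with a median of 0.08. This lies near the values over all genes tested, with 23.4% called higher and a median of 0.06. Capn2, a calpain that cuts neurofilaments, had 57.9 ± 7.38 CPM at 1 week and 45.0 ± 4.12 CPM without delay (log2 fold change 0.35, limma adjusted p = 0.0117), and Cast, the inhibitor of calpains, had 12.6 ± 1.22 and 8.72 ± 0.639 CPM in the same order (log2 fold change 0.49, limma adjusted p = 0.00353). With TMM or quantile scaling, by edgeR and with library weights 1 of the 8 was called lower, with median-of-ratios scaling and by DESeq2 2 were, and on the neuron marker scale 5 were called higher.

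Growth-cone proteins other than Gap43 and Stmn2 were mostly not called. Of 17, 1 was called higher (Marcks), 5 lower (Crmp1, Basp1, Fscn1, L1cam and Marcksl1) and 11 were not called, with a median of -0.10. Basp1, which like Gap43 is a lipid-anchored calmodulin-binding protein, had 771 ± 54.8 CPM at 1 week and 963 ± 93.3 CPM without delay, without overlap (log2 fold change -0.32, standard error 0.08, limma adjusted p = 0.0106). Marcks, a further protein of that kind, had 297 ± 19.9 and 232 ± 17.3 CPM in the same order (log2 fold change 0.36, limma adjusted p = 0.00218). Crmp1, a semaphorin signalling protein, had 107 ± 11.0 CPM at 1 week and 146 ± 13.8 CPM without delay (log2 fold change -0.44, limma adjusted p = 0.00175). The count called lower was 3 without the 1-week libraries B or C or the No-delay library A, 8 by DESeq2 and 1 on the neuron marker scale; the count called higher was 2 without the 1-week library D, 3 without the No-delay library A, with quantile scaling and with library weights, and 4 on that scale.

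Genes of the regeneration programme described in injured peripheral neurons included several that rose, while Gap43, often counted among them, was lower. Of 12 tested, 6 were called higher, 1 lower (Adcyap1) and 5 were not called, with a median of 0.26. Atf3, a transcription factor of injured neurons, passed the filter through the 1-week libraries alone, so its values are a description: 6.08 ± 1.28 CPM at 1 week and 0.375 ± 0.181 CPM without delay (SD, n = 4 each). Without Atf3, 5 of 11 were called higher, 1 lower and 5 were not called, with a median of 0.26. With Atf3 included, 4 were called higher with median-of-ratios scaling and by DESeq2, and 5 to 7 without 1 library. On the neuron marker scale 8 were called higher, and with quantile scaling 2 were called lower. Cd44, an adhesion receptor that glia and immune cells also make, had 15.4 ± 4.46 CPM at 1 week and 2.10 ± 0.696 CPM without delay (log2 fold change 2.39, limma adjusted p = 2.14e-06), and the neuropeptide gene Adcyap1 had 9.30 ± 2.75 and 19.9 ± 2.00 CPM in the same order (log2 fold change -1.06, limma adjusted p = 0.000365). The glial marker sums given above moved with these genes, and their part was not tested.

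A further list covered the axon initial segment, where the axon leaves the cell body, and the node, and is not confined to proteins of the initial segment. Of its 14 genes tested, 1 was called higher (Ank2) and 4 lower (Sptan1, Kcnq3 and Scn2a1 among them). The other 9 were not called, and the median was -0.12. Kcnq3, a potassium channel subunit, had 48.0 ± 5.47 CPM at 1 week and 57.6 ± 4.25 CPM without delay (log2 fold change -0.26, limma adjusted p = 0.0374), a call lost with library weights and without the 1-week libraries A or B or the No-delay libraries A, C or D. Sptan1, a spectrin of the membrane skeleton, had 332 ± 21.1 CPM at 1 week and 452 ± 12.3 CPM without delay (log2 fold change -0.45, limma adjusted p = 0.000156). The count called lower was 2 without the 1-week library B, without the No-delay library A or C and on the neuron marker scale, and 7 by DESeq2; the Ank2 call held in 8 of 19 alternatives and was lost without any 1 library but the No-delay libraries A and C.

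Regulators of axon degeneration gave 3 of 11 called lower and 8 not called, with a median of -0.11. Mapk9 and Mapk8, which encode the stress kinases JNK2 and JNK1, had 130.2 ± 16.6 and 165 ± 10.5 CPM at 1 week, against 195 ± 14.2 and 216 ± 22.1 CPM without delay (log2 fold changes -0.58 and -0.38, limma adjusted p = 0.000295 and 0.00253). Mycbp2, a ubiquitin ligase that limits the survival factor Nmnat2, had 78.5 ± 7.65 CPM at 1 week and 104 ± 7.26 CPM without delay (log2 fold change -0.40, limma adjusted p = 0.00192). With TMM or median-of-ratios scaling, by edgeR and by DESeq2 5 were called lower, and on the neuron marker scale 3 were called higher and 1 lower.

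**Figure D4:**
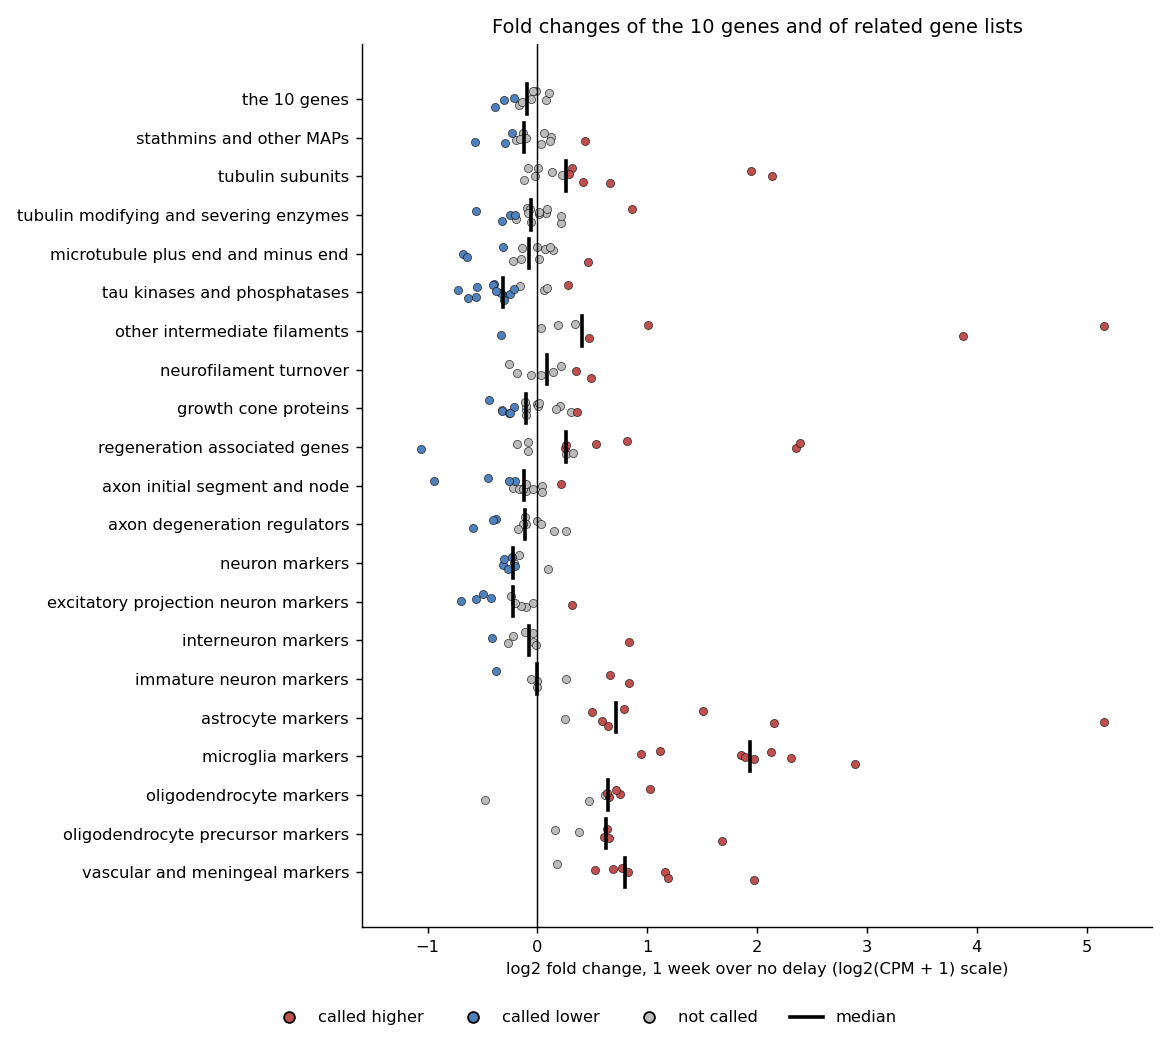
Log2 fold change (horizontal axis, 1-week over No-delay) of the 10 genes in the top row and of the genes tested in each related list below it; each point is 1 gene, coloured by its call (red higher, blue lower, grey not called), and the black bar is the median of the row. The 10 genes lie between -0.39 and 0.11, the regulators of tau have a median of -0.32, and Gfap lies at 5.16.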

How the data were processed

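RNA was isolated on columns and CAGE libraries were read from 1 end over 75 nt, per the labels' protocols. The submitters' processing notes name BWA 0.5.9 and build mm9. The deposited table gives CPM values by the authors for 17644 gene symbols in 8 columns. The rule that assigned tags to genes is not given in the sources used here. Columns carry the group and a 6-base tag that recurs in both groups, not a number of a sample, and were therefore assigned to groups only. A 3-base tag in the names is GCT in all 1-week columns and CAC in all No-delay columns, so whatever it marks cannot be told apart from the group. The labels do not say that samples come from separate animals, so p-values cover the spread among these samples, which may be technical.

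Map1b and Map2 are listed as Mtap1b and Mtap2 and were matched, like 14 of 215 matched list entries (of 220), through RefSeq synonyms. Log2(CPM + 1) was tested with limma 3.58.1 in R 4.3.3 (trended variance) for the 14718 genes with 1 CPM or more in at least 4 libraries, 2-sided, with Benjamini-Hochberg adjustment. The pseudocount of 1 understates the change of low genes. At least 99.99% of CPM values were whole multiples of 1 read within 0.1 reads, so reads could be recovered. 3 reads, the limit that a count of 0 allows, are worth 0.214 to 0.362 CPM in these libraries, which covers counting error only. On the recovered reads edgeR 4.0.16 and DESeq2 1.42.0 were run as alternatives. The others, 19 in all, were pseudocounts of 0.25 and 5, no filter and a filter at 5 CPM, TMM, median-of-ratios, quantile and neuron marker scaling, library weights and leaving out each library. The 6-base tag as a block was added after seeing the data. The procedure was tested on simulated data. Reads were shared in full with another row by 194 rows, none of them a gene named here.

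The 10 genes, the 20 lists (11 of related genes and 9 of cell type markers) and the pairs were chosen with earlier results of these data known. Named genes are the 10, up to 3 called members of each related list with the largest absolute log2 fold change, up to 2 of each marker list, and the 5 genes of nearest profile. Genes named without values complete a count of 5 or fewer and were chosen after their values were seen, as was Sprr1a. A few genes of the lists are counted but not reported here by name.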

Additional observations from a re-analysis of the deposited data

Results flagged for a closer look

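In 7 of 128 groups of 4 libraries examined, the highest or lowest library stood apart from the other 3 by more than Dixon's critical value for the gap over the range, and chance alone gives such a gap in about 1 in 20 groups. Among the 10 genes there was 1: Ina at 129.57 CPM in the 1-week library D, while A, B and C of that group held 114.63 to 117.15 CPM, and without that library Ina was still called lower.

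The other 6 were in genes of the lists. In 1-week libraries, D held 45.52 CPM of Camsap1 (others 34.36 to 35.87 CPM) and 68.98 CPM of Capn2 (others 53.87 to 54.98 CPM), and B held 547.86 CPM of C1qa (others 335.85 to 371.07 CPM). The No-delay library B held 121.8 CPM of Map7d2 (others 92.76 to 97.52 CPM), 18.56 CPM of Vim (others 25.32 to 26.02 CPM) and 3.57 CPM of Col1a1 (others 8.23 to 8.91 CPM).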

How the results depend on the processing

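The column names carry no replicate number, but each of 4 tags of 6 bases stands once in each group, and nothing in the labels says that a tag marks shared samples. With the tag as a block in limma, an alternative chosen after seeing the data, 3484 genes were called higher and 1986 lower and 2 of the 10 genes lower (Ina and Gap43), since Map1b was not called (-0.21, adjusted p = 0.0529). Deviations from the group means correlated over genes at -0.034 to 0.18 between libraries of the same tag, and of the 1-week libraries D alone correlated best with its own tag. None of the 6 pairs passed in an exact sign-flip test over tags, whose smallest p is 0.125. With each library divided by the neuron markers, 7174 genes were called higher and 730 lower, 2 of the 10 genes were called higher and 0 lower, and the signs of Nefl (0.14), Nefm (0.19), Nefh (0.028), Mapt (0.16) and Map2 (0.063) turned. This scaling moves the median of all genes to 0.25, and relative to it these genes lie at -0.11, -0.06, -0.22, -0.09 and -0.19. With quantile scaling 3211 genes were called lower, and the signs of Nefm (0.039) and Mapt (0.0030) turned. Genes called higher and lower were 3439 and 1971 with CPM as deposited, 2904 and 2636 with TMM, 2858 and 2759 by median of ratios, 2464 and 3211 with quantile scaling, 2923 and 2569 by edgeR, and 2799 and 2762 by DESeq2. Without 1 library at a time, 2841 to 3448 genes were higher and 1429 to 2142 lower, and 2 to 3 of the 10 were lower and 0 higher. Over those fits the log2 fold change of Nefm ran from -0.075 to 0.038 and that of Mapt from -0.082 to 0.0040. The cause of these changes was not tested. The pair differences kept their sign without any 1 library: 0.01 to 0.09 for Nefm over Nefl, -0.16 to -0.03 for Nefh over Nefl, -0.28 to -0.20 for Ina over Nefl, -0.14 to -0.06 for Map2 over Mapt, -0.23 to -0.10 for Map1b over Mapt and -0.61 to -0.42 for Gap43 over Stmn2. With 177 to 392 reads, Nefh is the gene whose precision depth limits most.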

Other observations

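Markers of neuron classes that make these proteins did not share 1 direction. With CPM as deposited, the marker counts here and below stand beside 23.4% of all genes tested called higher and 13.4% called lower. Those under other settings stand beside the counts of all genes given for the same setting above. Of 10 markers of excitatory projection neurons, 4 were called lower (Crym, Fezf2, Neurod6 and Bcl11b), 1 higher (Cux2) and 5 were not called, with a median log2 fold change of -0.22 and a summed level of 3728 to 4735 CPM at 1 week and 4313 to 4706 CPM without delay. Crym, a marker of deep-layer projection neurons, had 40.3 ± 7.47 CPM at 1 week and 65.8 ± 11.2 CPM without delay (SD, n = 4 each, log2 fold change -0.70, limma adjusted p = 0.00215). Fezf2, which specifies corticospinal neurons in development, had 24.1 ± 3.40 and 36.0 ± 3.81 CPM in the same order (log2 fold change -0.56, limma adjusted p = 0.00169). The Cux2 call held in 12 of 19 alternatives, and was lost with TMM or median-of-ratios scaling and without the 1-week libraries C or D or the No-delay libraries A, B or D. Of 8 interneuron markers, 1 was called higher (Pvalb), 1 lower (Sst) and 6 were not called, with a median of -0.08 and sums of 949 to 1082 CPM at 1 week and 1087 to 1212 CPM without delay. Pvalb, of fast-spiking interneurons, had 94.6 ± 10.1 CPM at 1 week and 53.6 ± 12.7 CPM without delay, without overlap (log2 fold change 0.83, limma adjusted p = 0.000683), and Sst had 276 ± 48.6 and 364 ± 35.4 CPM in the same order (log2 fold change -0.41, limma adjusted p = 0.0124). The count of interneuron markers called lower was 2 without the No-delay library A, with TMM, median-of-ratios or quantile scaling, by edgeR and by DESeq2, and 0 on the neuron marker scale.

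Of 7 tested markers of immature neurons, 2 were called higher (Sox4 and Tubb2b), 1 lower (Dlx1) and 4 were not called, with a median of -0.0044; Sox4 had 25.8 ± 4.71 CPM at 1 week and 13.9 ± 1.14 CPM without delay (SD, n = 4 each, log2 fold change 0.83, limma adjusted p = 0.000295). The Dlx1 call was lost without any 1 of the 1-week libraries A, B and D or the No-delay libraries B and C. Called higher were 7 of 8 astrocyte markers (Aqp4 at 109 ± 15.5 CPM at 1 week and 23.8 ± 3.89 CPM without delay), 8 of 8 microglia markers (C1qa at 405 ± 96.4 and 52.9 ± 3.45 CPM, Itgam at 49.95 ± 10.6 and 9.23 ± 1.96 CPM), 5 of 8 oligodendrocyte markers (Cldn11 at 86.4 ± 16.6 and 42.1 ± 9.68 CPM), 4 of 6 markers of their precursors (Gpr17 at 44.6 ± 17.2 and 12.6 ± 2.13 CPM) and 7 of 8 vascular and meningeal markers (Col1a1 at 37.2 ± 26.5 and 7.31 ± 2.51 CPM), each given with the 1-week value before the No-delay value (SD, n = 4 each). The oligodendrocyte count was 2 without the 1-week libraries A, B or C or the No-delay library D, 3 without the No-delay library B and 1 by DESeq2.

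Sprr1a, a regeneration-associated gene of injured peripheral neurons, was not tested because it had under 1 CPM in 5 libraries. It had 0.36, 3.26, 6.28 and 12.79 CPM in the 1-week libraries, from lowest to highest, and 0 reads in all No-delay libraries. With reads pooled over each group, its 307 reads at 1 week against a limit of 3 reads over the No-delay group make it at least 86.0-fold higher. This bound and the next cover counting error without delay only, and not the spread between the 1-week libraries. Library C held 179 of these reads, and without it the 128 others make it at least 50.6-fold higher. The lowest 1-week library held 3 reads, the number that a count of 0 allows.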
